A study of Drosophila melanogaster with 3 samples.

Results

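The peaks described here are the binding regions of the Drosophila transcription factor Mirror (gene mirr) that lie inside introns and far from any promoter. They were chosen by position alone. The summit of the peak had to fall inside a protein-coding gene, outside every exon of a protein-coding transcript, and more than 5000 bp from the nearest protein-coding transcription start site (TSS). Of about 6200 peaks that passed the authors' reproducibility filter (IDR, irreproducible discovery rate), 647 met the rule, or 10.4%. The rest comprised 2788 peaks within 500 bp of a TSS (promoter peaks), 1780 intronic peaks between 500 and 5000 bp from one (intronic near), 302 intergenic peaks more than 5000 bp away (intergenic far) and 684 others.

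Chromatin immunoprecipitation with sequencing (ChIP-seq) was carried out on whole embryos of mixed sex, collected 4 to 20 h after egg laying according to the source name, from a transgenic line named mirr-GFP whose Mirror protein carries GFP at its C-terminus. All 3 samples are biological replicates of that 1 group, and no untagged or mutant embryos were analysed here. The labels name 1 shared control for all 3, so the replicates are not independent of each other in that respect. Chromatin was sheared to 200 to 800 bp. The free-text description calls the samples an input control, whereas the title, assay name and antibody field give a transcription factor ChIP, and the files are peak lists. The age field itself holds a value that cannot be read as an age. Arm 2R stays in all counts and tests, but no sequence from it is shown, and the strongest peaks whose sequences are given are those on the other arms.

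Mirror is a homeodomain protein of the Iroquois complex, a cluster of related genes, ara, caup and mirr, that pattern the notum, eye, head and other epidermal fields in flies. Iroquois proteins belong to the TALE class of homeodomain proteins, which have an extra loop of amino acids in the homeodomain. Long introns of developmental genes often hold enhancers, short stretches to which many transcription factors bind and from which they act on a promoter at a distance. In whole embryos, strong binding in a few cells and weak binding in many cells cannot be told apart.

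Windows reaching 50 bp to either side of the summit, on the plus strand of dm6, are shown for a few of these peaks because the sequence results below turn on them. The 2 strongest intronic far peaks on the arms shown lay in Bsg (chr2L:8100902-8101002) and spen (chr2L:166689-166789). Capitals mark the 10 hexamers (6-base sequences, both strands) that were most enriched at intronic far summits.
Bsg: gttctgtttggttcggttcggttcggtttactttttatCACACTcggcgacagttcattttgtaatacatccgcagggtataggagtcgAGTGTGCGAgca
spen: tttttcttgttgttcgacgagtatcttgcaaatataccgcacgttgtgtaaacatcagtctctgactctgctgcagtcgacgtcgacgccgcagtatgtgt

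The 3 strongest peaks on the arms shown with the Iroquois palindrome ACANNTGT, a sequence that Iroquois homeodomains bind in vitro, within 50 bp of the summit lay in Mob2 (chr3L:11528667-11528767), puc (chr3R:8115347-8115447) and NFAT (chrX:13634591-13634691). Capitals mark the palindrome, which began 6 bp after the summit in Mob2, 2 bp before it in puc and 21 bp before it in NFAT, where 3 matches lay end to end.
Mob2: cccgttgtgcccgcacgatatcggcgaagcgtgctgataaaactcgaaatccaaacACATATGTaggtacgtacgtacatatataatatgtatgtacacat
puc: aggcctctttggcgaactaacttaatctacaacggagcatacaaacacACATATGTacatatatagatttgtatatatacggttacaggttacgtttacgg
NFAT: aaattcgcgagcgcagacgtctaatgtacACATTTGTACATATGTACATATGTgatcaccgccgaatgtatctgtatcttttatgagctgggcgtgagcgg

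The 3 strongest on the arms shown with the GATA factor sequence, AGATAAG or TGATAAG, within 50 bp of the summit lay in Tet (chr3L:2799457-2799557), CG9171 (chr2L:5790919-5791019) and nkd (chr3L:19040333-19040433). Capitals mark that sequence, which began 30 bp after the summit in Tet and 36 bp after it in CG9171 and nkd.
Tet: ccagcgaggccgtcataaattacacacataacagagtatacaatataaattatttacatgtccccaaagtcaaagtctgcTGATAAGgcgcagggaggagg
CG9171: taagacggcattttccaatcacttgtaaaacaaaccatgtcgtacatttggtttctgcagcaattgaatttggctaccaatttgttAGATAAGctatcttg
nkd: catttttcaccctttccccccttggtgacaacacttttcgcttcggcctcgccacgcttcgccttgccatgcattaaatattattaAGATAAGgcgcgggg

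The signal of a peak is the value the authors deposited for it. Its scale is not stated and the read depth behind it is unknown, so no counting interval is given and signals are compared only within a list. Among the intronic far peaks the signal ran from 190.8 to 1644, with a median of 279 and quartiles of 223 and 396. The median was 300 for intronic near peaks, 279 for intergenic far peaks and 296 for promoter peaks. The strongest intronic far peak held place 33 in the whole IDR list. Their median distance to a TSS was 8523 bp, with quartiles of 6346 and 13347.5 bp and a maximum of 56169 bp. At the edge of the rule, the intronic far peak closest to a TSS had a signal of 246 at 5017 bp, in Eip75B, and the intronic peak just under the limit had 790 at 4989 bp.

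The strongest intronic far peaks, picked by pooled signal, were high in all 3 replicates, whose reads make up the pool. The Bsg peak lay in a first intron of the gene for Basigin, an immunoglobulin-family membrane protein. It had signals of 626, 457 and 573 in replicates 1, 2 and 3, each on its own scale. Its places in their lists were 50, 21 and 54. The sbb peak lay in a first intron of scribbler, which encodes a nuclear cofactor of transcription. It had signals of 371, 341 and 919, and held places 209, 55 and 15. It stood higher by place in replicate 3 than in replicate 1. The next peaks lay in dnr1, a ubiquitin ligase gene of the immune and caspase pathways, Pgant9, a glycosyltransferase gene, and spen, a gene for an RNA-binding cofactor of transcription, with pooled signals of 1459, 1102 and 1082.

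The others among the 20 strongest included those in shn, a zinc finger mediator of Dpp signalling, PRAS40, an inhibitor of the growth kinase TORC1, ftz-f1 with 2 peaks, CG10939, bmm, the gene for the lipase Brummer, dve, a homeobox gene, crp, a bHLH gene, Hr4 and Eip75B, both nuclear receptor genes, shot, the gene for a cytoskeletal linker, Myo28B1, a myosin gene, Mical, whose product oxidises actin, and Tet. Their pooled signals ran from 1040 down to 808. All 20 were in all 3 replicate lists, beside 54.6% of the class, but they were picked by the signal pooled from the same replicates. A first intron held 13 of them, beside 54.4% of the class. Within 100 bp of the summit 4 held the Iroquois palindrome and 4 the GATA factor sequence, beside 16.8% and 20.1% of the class.

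Recurrence was measured against the strongest regions of each replicate, taken to the same number as the IDR list, with 1 bp of overlap. Of the 647 intronic far peaks, 353 (54.6%) were in all 3 replicate lists, 223 (34.5%) in 2, 67 (10.4%) in 1 and 4 (0.618%) in none. The 4 were in KrT95D, shot, dnc and CG34355, with pooled signals between 190.9 and 195.6, close to the lowest in the list. Against the replicates' full lists, which also hold background regions, 642, 639 and 644 intronic far peaks were overlapped by replicates 1, 2 and 3. Ranks of the same 633 peaks, those found in all 3 full lists, correlated between replicates with Spearman's rho of 0.562 for 1 and 2, 0.656 for 1 and 3 and 0.553 for 2 and 3. The points share the 1 control and each list's own filter, and no p was computed.

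The replicates did not cover intronic far peaks equally. Replicate 1 overlapped 477 intronic far peaks (73.7%), replicate 2 overlapped 513 (79.3%) and replicate 3 overlapped 582 (90.0%). The order was the same for intronic near peaks (78.7%, 81.7% and 88.7% in replicates 1, 2 and 3) and intergenic far peaks (70.9%, 75.2% and 90.7%). For promoter peaks the order was different, since replicate 1 overlapped 88.9% of them, replicate 2 overlapped 74.6% and replicate 3 overlapped 76.1%. With each replicate alone, the log2 odds ratio of being overlapped, intronic far over promoter peaks, therefore ran from -1.51 in replicate 1 to 1.49 in replicate 3. The rule itself, applied to the strongest regions of each replicate, found 568 regions in replicate 1, 717 in replicate 2 and 756 in replicate 3, or 9.16%, 11.6% and 12.2% of each list.

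**Figure D1:**
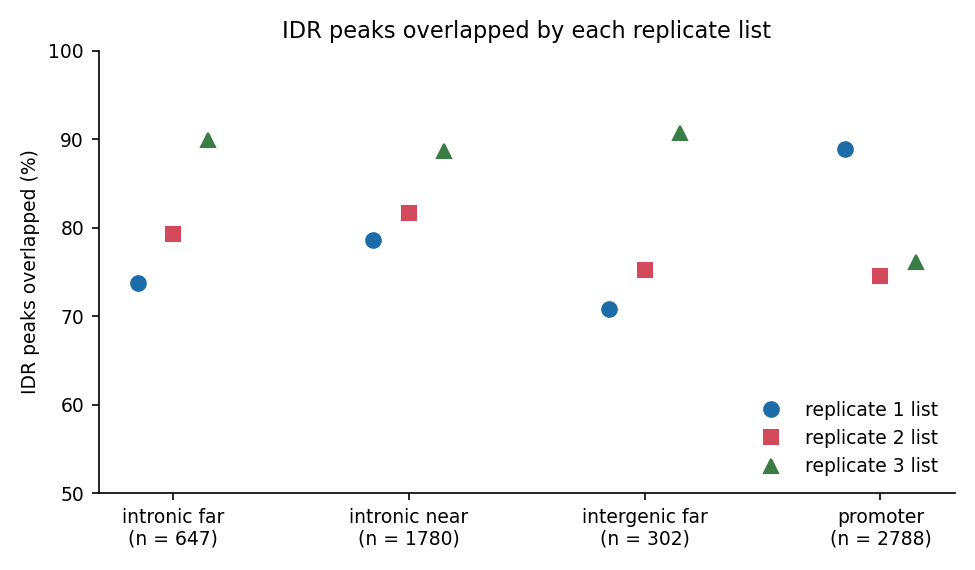
Share of IDR peaks of each position class that overlapped the strongest regions of each replicate, in percent (axis from 50 to 100). Circles, squares and triangles are replicates 1, 2 and 3. Intronic far peaks were overlapped least by replicate 1, at 73.7%, and promoter peaks most by replicate 1, at 88.9%.

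Fewer intronic far peaks than intronic near peaks recurred in all 3 lists, 54.6% against 60.8% (log2 odds ratio -0.37, SE 0.13, adjusted exact p = 0.0176). Shares were compared by a two-sided exact test after Fisher, and p was adjusted by the Benjamini-Hochberg method over the 3 comparisons of a measure. The units of these tests are peaks, which are not replicates, so p describes the lists and not new embryos. The difference was not called under most alternatives, for example without replicate 1 (-0.12) or among the 3100 strongest IDR peaks (-0.01), and with the replicates' full lists the log2 odds ratio was 0.68. Intronic far peaks did not pass the test against intergenic far peaks (52.3%, adjusted exact p = 0.53) or promoter peaks (53.0%, adjusted exact p = 0.53). Counting recurrence in the other replicates alone, the log2 odds ratio against promoter peaks was -0.47 without replicate 3 and 0.82 without replicate 1, both called. Over replicates the share overlapped was 81.0% ± 8.25 for intronic far peaks and 79.9% ± 7.85 for promoter peaks (SD, n = 3).

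The share of intronic far peaks among the strongest 25% of the IDR list was 21.6%, against 25.4% of intronic near, 25.5% of intergenic far and 25.3% of promoter peaks. In the IDR list none of these differences passed the test (log2 odds ratios -0.31, -0.31 and -0.29, adjusted exact p = 0.0819, 0.213 and 0.0819). In the replicate lists the share was 20.9% ± 1.59 for intronic far regions, 26.3% ± 0.854 for intronic near, 22.5% ± 2.13 for intergenic far and 25.6% ± 0.648 for promoter regions (SD, n = 3). The same exact test was called in replicate 1 against intronic near (adjusted exact p = 0.00695) and promoter regions (0.0142) and in replicate 2 against both (0.00057 and 0.00458). It was called against no class in replicate 3 (adjusted exact p = 0.267, 0.941 and 0.15 against intronic near, intergenic far and promoter regions). With a limit of 10000 bp in place of 5000 bp, the difference was called against all 3 classes, at -0.71, -0.78 and -0.71.

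Peaks were sparser with distance from the promoter. In protein-coding introns, IDR summits occurred at 121 per Mb between 500 and 1000 bp from a TSS, 94.0 between 1 and 2 kb and 58.0 between 2 and 5 kb. Beyond the limit of 5000 bp the density was 35.3 per Mb up to 10 kb, 22.6 between 10 and 20 kb and 6.40 over 20 kb. The 3 replicate lists gave 37.3 ± 4.83, 23.9 ± 4.23 and 6.52 ± 0.943 per Mb in the last 3 bins (SD, n = 3), and these groups of values did not overlap. The bins held 379, 200 and 68 intronic far peaks. With 3 lists a two-sided sign-flip test cannot go below 0.25, so no p is given for such values.

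Part of the intron counted in these densities held no region at all. Introns over 5000 bp from a TSS made up 30.2 Mb, or 22.6% of the main chromosome arms, in 1852 genes. In 922 of these genes no region of the authors' pooled list, background regions included, lay in the eligible intron, and 15 such genes with over 100 kb of it, Myo81F and Pzl first among them by length, made up 5.29 Mb. Whether reads could be placed there was not tested. When introns of genes without a region were left out, an alternative chosen after seeing the data, the density was 45.9 per Mb from 5 to 10 kb, 26.6 from 10 to 20 kb and 14.1 over 20 kb.

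Far inside introns, a smaller share of the regions in the authors' pooled list overlapped an IDR peak than nearer to promoters. The authors also deposited 30000 regions called on the pooled reads with a relaxed threshold, and the IDR peaks are the strongest of these, with the same summits and signals. Of the relaxed regions that met the intronic far rule, 776 of 5943 (13.1%) overlapped an IDR peak, against 24.4% of all relaxed regions. The share was lower than among intronic near regions (26.3%, log2 odds ratio -1.25, SE 0.07, adjusted exact p = 1.96e-84) and promoter regions (39.7%, -2.13, SE 0.06, adjusted exact p = 7.57e-282). It did not pass the test against intergenic far regions (12.2%, 0.11, SE 0.10, adjusted exact p = 0.267). In the replicate lists the corresponding share was 11.7% ± 1.26, against 22.5% ± 1.92 for intronic near, 10.6% ± 0.789 for intergenic far and 32.9% ± 0.587 for promoter regions (SD, n = 3). Within introns the share of pooled relaxed regions that overlapped an IDR peak was 31.7% between 500 and 1000 bp from a TSS and 7.64% over 20 kb.

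**Figure D2:**
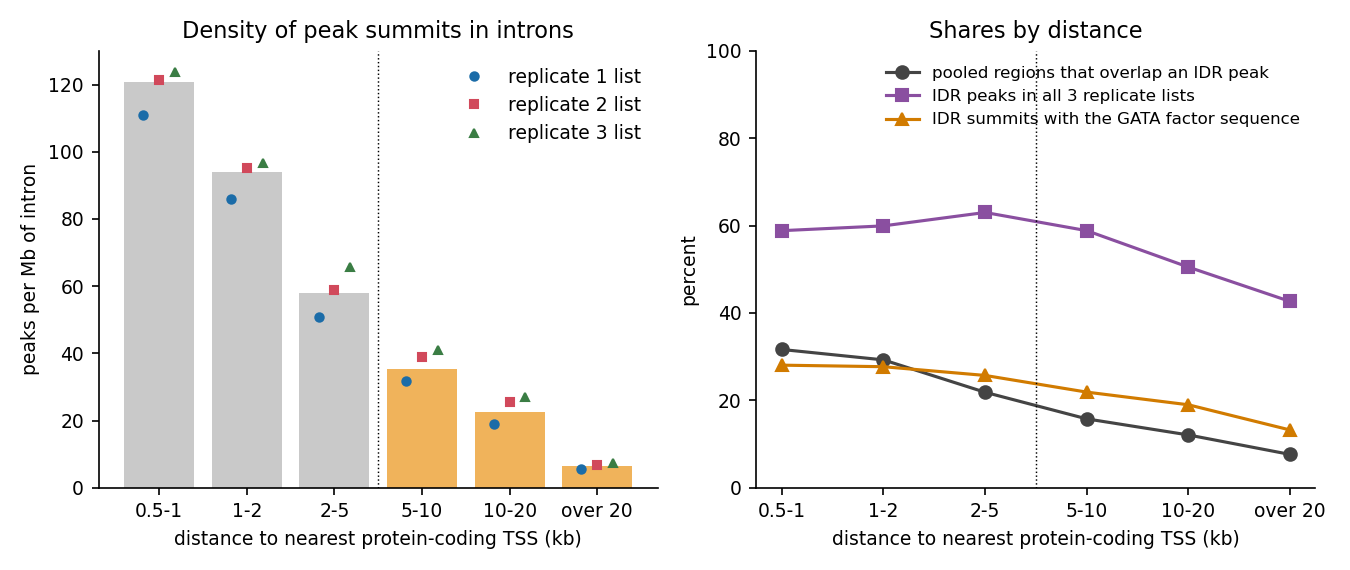
Intronic summits by distance to the nearest protein-coding TSS in kb, with the limit of 5 kb as a dotted line. Left, IDR summits per Mb of intron (bars, orange beyond the limit) and the 3 replicate lists (points), 121 per Mb nearest the TSS and 6.40 over 20 kb. Right, in percent, relaxed regions that overlap an IDR peak, IDR peaks in all 3 replicate lists and IDR summits with the GATA factor sequence.

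Intronic far peaks stood alone more often than intronic near peaks. Another IDR summit lay within 2 kb of 46.1% of intronic far peaks, against 60.4% of intronic near peaks (log2 odds ratio -0.84, SE 0.13, adjusted exact p = 1.11e-09), and the replicate lists gave 42.4% ± 3.38 against 60.6% ± 1.28 (SD, n = 3). The comparison with intergenic far peaks (43.0%, adjusted exact p = 0.511) and with promoter peaks (44.6%, adjusted exact p = 0.511) did not pass the test. Since an intronic near peak has a promoter close by and promoters hold the most peaks, the distance rule and this measure are not independent of each other. Another summit of the class lay within 200 bp of 8 intronic far peaks, whose windows share sequence.

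Few intronic far peaks lay at the start of a non-coding gene. An annotated start of a non-coding RNA gene was within 500 bp of 15 of them (2.32%), against 15.2% of intergenic far peaks (log2 odds ratio -2.92, SE 0.44, adjusted exact p = 1.7e-12) and 4.66% of promoter peaks (-1.04, SE 0.40, adjusted exact p = 0.00959). The comparison with intronic near peaks (3.15%, adjusted exact p = 0.341) did not pass the test. Genes annotated as ncRNA, tRNA, snoRNA, snRNA or rRNA were counted. Those annotated as other types, microRNA precursors among them, were not. Intergenic far peaks lie outside protein-coding genes by the rule. How densely non-coding starts are annotated in the sequence of each class is not given here, so these shares have no base rate beside them. The strongest of the 15 was the Myo28B1 peak, near the long non-coding RNA gene lncRNA:CR44148, with a signal of 819. A pair lay near tRNA genes, in Sema1a, which encodes an axon guidance ligand, with a signal of 634, and in nmo, a kinase gene, with 282. Of the 15 peaks, 3 were in osa, a chromatin remodelling gene.

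The GATA factor sequence was the known sequence with the largest excess at intronic far summits among those found at 10 or more of them. AGATAAG or TGATAAG, on either strand, occurred within 100 bp of 130 of 647 summits (20.1%) and in 7.88% of windows of the same length centred 1000 bp to either side, a ratio of 2.55. The ratio was 2.58 ± 0.233 in the replicate lists (SD, n = 3). Among all IDR summits the share was 20.1%, and among relaxed regions of the same rule without an IDR peak it was 6.37%. The Iroquois palindrome occurred at 109 summits (16.8%) and in 9.74% of flanking windows, a ratio of 1.73, with 1.64 ± 0.111 in the replicates (SD, n = 3). Among all IDR summits its share was 13.4%, and among relaxed regions of the rule 10.3%. Both occurred together at 16 summits, and 424 summits held neither, including the one in spen printed above.

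Both sequences were commonest within about 100 bp of the summit. In 50-bp bins the GATA factor sequence was found at 7.11% of summits in the bin from 0 to 49 bp and at 2.94% in the bin from 100 to 149 bp. The Iroquois palindrome was found at 5.72% and 2.94% in the same bins. Over the distance bins, the share of IDR summits with the GATA factor sequence was 28.1%, 27.7% and 25.7% in introns up to 5 kb from a TSS, and 21.9%, 19.0% and 13.2% beyond. The palindrome's share lay between 11.8% and 19.0% in each of these bins, with no steady order. The last bin has 68 peaks, of which 9 held the GATA factor sequence and 8 the palindrome.

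**Figure D3:**
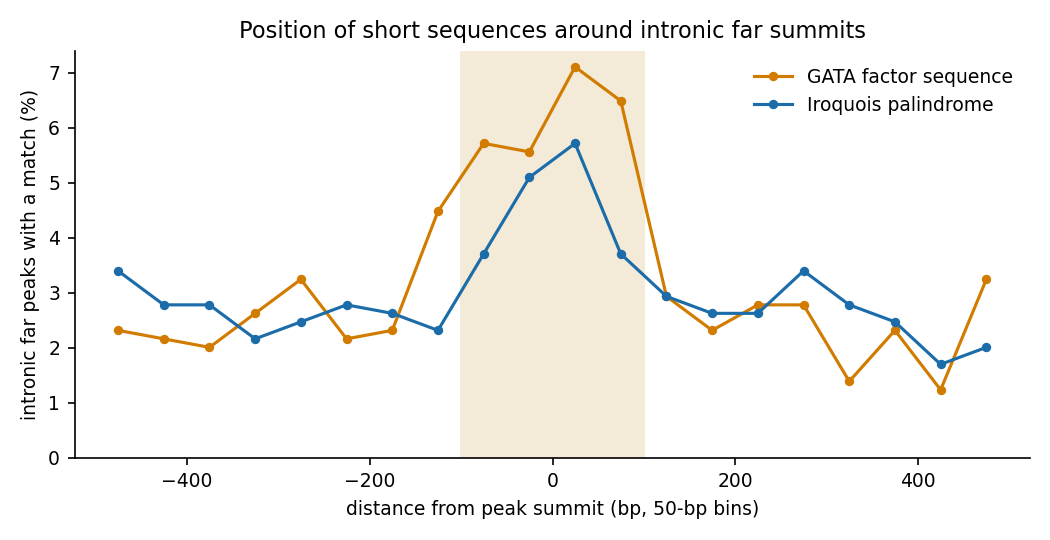
Share of the 647 intronic far peaks with the GATA factor sequence (orange) or the Iroquois palindrome (blue) in 50-bp bins, by distance from the summit in bp, with the 100 bp on either side shaded. Both shares peak in the bin from 0 to 49 bp, at 7.11% and 5.72%.

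Other sequences behaved differently. The CA repeat CACACACA was at 11.4% of summits and in 5.41% of flanks, a ratio of 2.11, but its share was 13.0% at relaxed regions without an IDR peak. The homeodomain core TAATTA, bound by most homeodomains outside the TALE class, was at 11.7% of summits and in 15.6% of flanks, and its ratio was 0.787 ± 0.0478 in the replicates (SD, n = 3). TGACAG, bound by other TALE proteins, was at 9.43% of summits and in 9.12% of flanks, with a replicate ratio of 1.11 ± 0.187. The median GC content of the summit window was 43.3%, and that of the flanks 40.8%.

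Between position classes, 16 known sequences were compared, with Benjamini-Hochberg adjustment over all tests of the 3 classes. Against intronic near summits 1 of 16 was called (6.25%), the GATA factor sequence, at 20.1% of intronic far and 27.0% of intronic near summits (log2 odds ratio -0.56, SE 0.16, adjusted exact p = 0.0057). Against intergenic far summits Fisher's test called 0 of 16 (0%), with 2 at an unadjusted p under 0.05. The GATA factor sequence was at 13.2% of intergenic far summits (log2 odds ratio 0.72, SE 0.28, adjusted exact p = 0.0868).

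Against promoter summits 4 of 16 were called (25%). The Iroquois palindrome was commoner at intronic far summits (16.8% against 11.9%, log2 odds ratio 0.58, SE 0.17, adjusted exact p = 0.0105). The E-box CAGCTG, a binding sequence of bHLH proteins, was rarer (8.50% against 14.8%, -0.90, SE 0.22, adjusted exact p = 0.000222). So were 2 core promoter sequences, but the distance rule, which keeps intronic far peaks away from every TSS, and this comparison are not independent. The DNA replication element TATCGATA was at 1 intronic far summit (0.155%), against 5.16% of promoter summits, with a log2 odds ratio of -5.14 and a 95% interval from -7.98 to -2.30 (adjusted exact p = 9.57e-11). Motif 1, GGTCACACT, was at none, which allows a share of up to 0.464%, against 3.01% of promoter summits (adjusted exact p = 9.09e-07). When the excess of summits over their own flanks was compared instead, none of the 16 was called against any class, with 1, 0 and 4 at an unadjusted p under 0.05 against intronic near, intergenic far and promoter summits.

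All hexamers were then compared between the 647 summit windows and their 1294 flanks. Fisher's test with Benjamini-Hochberg adjustment called 205 of them (9.86%), 102 more frequent at summits and 103 less frequent. All 102 had the same sign in each replicate list, but they were picked in the list pooled from the same replicates. Their agreement in sign is therefore not an independent test. Of the 102, 34 were also more frequent than at relaxed regions of the rule without an IDR peak, and 14 held GATA or its complement. The summit windows of those relaxed regions had a median GC content of 46.3%, against 43.3% at intronic far summits. The effect of this difference on the comparison was not tested. No base rate over all hexamers is given here for the 34 or the 14 of these 102, or for the kinds among the first 10 below. These counts are therefore not read as an excess. The highest was CTTATC, whose complement is GATAAG, at 26.3% of summits and 11.2% of flanks (log2 odds ratio 1.5, SE 0.18, adjusted exact p = 2.07e-13, 1.40 ± 0.0542 in the 3 replicates). Next came CTGATA (17.8% and 7.26%), CCGATA (7.88% and 3.25%), AGTGTG (19.0% and 8.50%) and CGATAA (17.9% and 8.35%). The others of the first 10 were CGCACA (23.3% and 11.3%), GATAAC (13.1% and 5.95%), GTGCGA (14.7% and 7.11%), CCACAC (14.7% and 7.19%) and GCACAC (21.8% and 11.3%). Of these 10, 5 hold GATA on either strand and 5 hold CAC on either strand, and the capitals in the Bsg window above are all of the CAC kind. All 5 GATA hexamers were also more frequent than at relaxed regions of the rule without an IDR peak, as were AGTGTG and GTGCGA. The other 3 were not called in that comparison, with CGCACA at 19.4%, CCACAC at 15.7% and GCACAC at 20.4% of those regions. The 5 lowest were AGGATC (0.309% and 3.71%, log2 odds ratio -3.64), AGGTCC (0.773% and 3.17%), AGATGC (1.85% and 7.11%), GATGCA (2.01% and 7.34%) and ATCCTG (1.24% and 4.48%). All of these had a log2 odds ratio below 0 in each replicate list, whose reads make up the pool, and also at intronic near, intergenic far and promoter IDR summits.

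Between classes, 4 hexamers (0.192%) differed from intronic near summits. GAGGCA was commoner at intronic far summits (11.3% against 6.24%, log2 odds ratio 0.94, SE 0.23, adjusted exact p = 0.0421), and 3 that overlap the GATA factor sequence were rarer, TGATAA (-0.57), CTTATC (-0.65) and ATAAGA (-0.71). Under 3 alternatives, with starts and exons of all genes, with 1 summit per gene or among the 3100 strongest peaks, none was called. Against intergenic far summits 2 (0.0962%) were called, CGCGGC and GATCGC, both rarer (-1.97 and -1.99). Against promoter summits 331 (15.9%) were called, 171 commoner and 160 rarer. Runs of G or C led the first group, such as CCTCCC (11% against 3.66%, 1.70) and CCCCTC (13.9% against 5.16%, 1.57). Pieces of the core promoter sequences were among the second, such as ATCGAT (4.02% against 14.2%, -1.98) and GGTCAC (2.47% against 8.93%, -1.95). For these the comparison is again not independent of the distance rule.

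The 647 peaks lay in 345 host genes, which is 18.6% of the 1852 protein-coding genes with eligible intron and 37.1% of the 930 with a region of the pooled list in it. Of the hosts 199 had 1 such peak, 146 had 2 or more and 27 had 5 or more, and 457 peaks lay in the 146. A total of 31 peaks lay in more than 1 gene, because genes overlap. Hosts had a median of 18.5 kb of eligible intron and the other eligible genes 4.25 kb. The TSS nearest to the peak belonged to a host for 466 peaks (72.0%) and to another gene for 181, and no target gene is assigned here. A first intron, meaning that of any protein-coding transcript of the host, held 352 of the peaks (54.4%). The first introns of all such transcripts made up 30.9% of eligible intron, or 37.2% in genes with a region. A gene can thus have several first introns. The intron around a peak had a median length of 15306 bp.

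Hosts more often had a Mirror peak at their own promoter. An IDR peak within 500 bp of an own TSS was present in 61.4% of the 345 hosts and in 26.3% of the 1507 other eligible genes. The other genes include the 922 with no pooled region in their eligible intron, which could not be hosts. The shares were not computed without these 922. The replicate lists gave 56.3% ± 5.72 of hosts and 26.4% ± 3.62 of other genes (SD, n = 3), and the 2 groups of values did not overlap. Longer introns can hold more peaks, so genes were also split by the length of eligible intron. The shares for hosts and other genes were 53.8% and 30.5% up to 2 kb, 65.2% and 27.6% between 2 and 10 kb, 62.5% and 24.2% between 10 and 30 kb, and 57.7% and 13.0% over 30 kb.

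The genes with the most intronic far peaks had 7 to 9 each. Those with 9 were sbb, px, a gene of wing vein patterning, Snoo, the homologue of the SKI and SNO corepressors of TGF-beta signalling, and rdx, which encodes a BTB adaptor that targets the Hedgehog effector Ci. The same rule in replicates 1, 2 and 3 found 7, 11 and 11 regions in sbb, 8, 10 and 9 in px, 8, 10 and 8 in Snoo and 7, 10 and 10 in rdx. The nuclear receptor gene ftz-f1 had 8 (8, 9 and 7 in the replicates), tara, a gene for a cell cycle and chromatin cofactor, had 8 (9, 11 and 11), and the overlapping pair Glut4EF and CG46467 shared 8 (9, 8 and 8). Eip75B had 7 (8, 10 and 8), bun, a gene of the TSC22 family, had 7 (4, 7 and 8), and Tis11, whose product promotes mRNA decay, had 7 (4, 5 and 7). Per length, Tis11 and tara were the densest of these, with 7 and 8 peaks in 12.5 and 16.1 kb of eligible intron, and Glut4EF the sparsest, with 8 in 86.9 kb. All 11 also had a promoter peak.

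**Figure D4:**
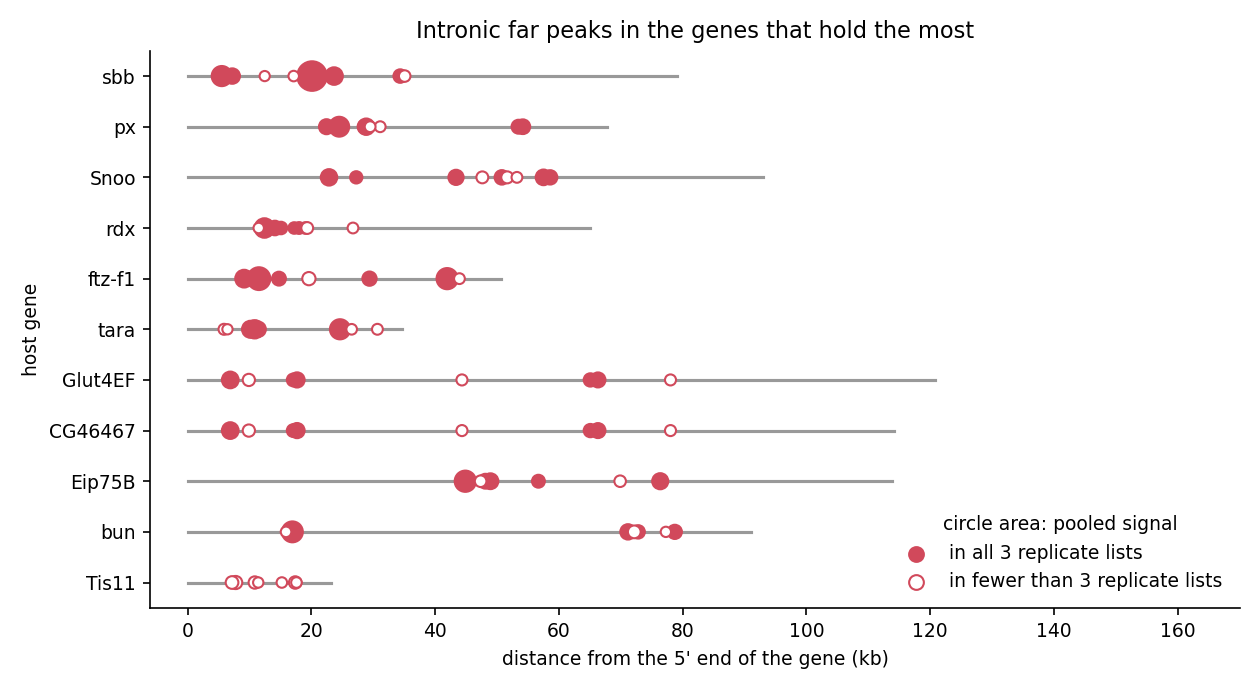
Intronic far peaks along the genes that hold at least 7, by distance from the 5' end of the gene in kb, with the gene as a grey line and the area of a circle in proportion to the pooled signal. Filled circles are peaks in all 3 replicate lists, 6 of 9 in sbb and 0 of 7 in Tis11. Glut4EF and CG46467 overlap and show the same peaks.

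The clusters differed in strength and recurrence. In ftz-f1, 6 of 8 peaks were in all 3 replicate lists, and the strongest, 11531 bp from a TSS, had signals of 358, 241 and 355 in replicates 1, 2 and 3. In tara 4 of 8 recurred in all 3 lists, and its strongest had signals of 195, 293 and 246. None of the 7 peaks in Tis11 was in all 3 lists. The strongest there had signals of 74.1, 59.5 and 186, and its pooled signal of 318 was the lowest maximum of the 11 genes. In elB, singled out after seeing the values, a zinc finger gene of tracheal and appendage development with no promoter peak, all 6 peaks were in all 3 lists.

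The gene of the factor itself was among the hosts. Intronic far peaks numbered 4 in mirr and 1 in caup, and none lay in ara. In mirr, 3 of the 4 were in all 3 replicate lists. The strongest, 10871 bp from a TSS, had a pooled signal of 553 and signals of 138, 155 and 272 in replicates 1, 2 and 3. The caup peak, 8594 bp from a TSS, had 191, close to the lowest of the list, with 65.1, 36.1 and 79.8 in the replicates. It was in 1 replicate list. The line carries a tagged mirr transgene, and reads from it and from the gene itself cannot be told apart if the construct holds these introns.

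The 10 lists of genes by role were read against all genes with eligible intron, which had 21.4 intronic far peaks per Mb of it (22.5 ± 3.29 in the replicate lists, SD, n = 3). These are descriptions, with no test, and the lists were drawn up with earlier results known. The densest was that of nuclear receptors and ecdysone-induced factors. It joins genes of the response to ecdysone, the moulting hormone, with other nuclear receptor genes such as svp, dsf and knrl. It had 27 peaks in 7 of 14 eligible genes, or 72.8 per Mb (76.4 ± 3.11 in the replicates). They were ftz-f1 (8), Eip75B (7), EcR, the hormone's receptor (5), Hr4 (4), Hr3 (1), Eip74EF (1) and Hr39 (1), and all members of this list are named because of its density. Of the 27 peaks, 16 were in all 3 replicate lists. The strongest in EcR had signals of 342, 156 and 324 in replicates 1, 2 and 3, and that in Hr4 had 317, 160 and 359. Eip75B held 4 of the 109 peaks with the Iroquois palindrome. The 7 eligible genes without such a peak were Eip78C, Hr38, svp, dsf, knrl, Eip93F and br, of which br had 44 kb and Eip93F 38.8 kb of eligible intron.

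BTB factors and chromatin regulators had 26 peaks in 7 of 24 eligible genes, 63.9 per Mb (69.6 ± 11.6 in the replicates), with tara (8), rdx (9), bab1, a gene of limb and abdomen patterning (1), and osa (4) holding the strongest. The bab1 peak had signals of 115, 74.8 and 227 in replicates 1, 2 and 3. Zinc finger, bHLH and other developmental factors had 38 in 11 of 32, 62.5 per Mb (65.8 ± 15.9), with sbb (9), crp (3), aop, an Ets repressor gene of the EGFR pathway (3), and jing (4). The strongest in aop had signals of 226, 129 and 299 in the replicates. Genes of signalling pathways had 39 in 22 of 44, 52.4 per Mb (57.8 ± 5.85). The strongest were in shn (2), InR, the insulin receptor gene (3), nkd, an antagonist of Wnt signalling (6), and puc, a phosphatase gene of the JNK pathway (1). The strongest in shn had signals of 356, 266 and 403 in the replicates. Muscle and cytoskeleton genes had 15 in 8 of 28, 41.5 per Mb (37.8 ± 4.22), of which shot had 6, alpha-Spec, a spectrin gene, 2, and Msp300 and pigs 1 each. GATA, Sox, T-box and forkhead factors had 7 in 4 of 14, 38.7 per Mb (35.1 ± 8.46), of which ush, whose product is a cofactor of GATA proteins, had 4 and foxo, Sox21b and bi 1 each. The strongest in ush had signals of 197, 160 and 245 in the replicates, and the bi peak was absent from the full list of replicate 1.

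The listed homeodomain genes were close to all genes, with 18 peaks in 11 of 51 eligible genes, or 24.3 per Mb (23.9 ± 5.63 in the replicates). Of these peaks mirr had 4, hth, a TALE gene, 3, Antp, a Hox gene, 2 and cad 1. This list is not complete, since it leaves out dve, the homeobox gene named above as a host. The strongest in hth had signals of 154, 161 and 279 in the replicates. Below them were RNA-binding regulators with 13 in 7 of 17, 12.0 per Mb (14.2 ± 2.82), with the strongest in shep, sm, mub and msi. Ion channels and neurotransmitter receptors had 9 in 5 of 54, 7.19 per Mb (6.66 ± 1.22), of which dnc, a phosphodiesterase gene, had 4, 5-HT7, a serotonin receptor gene, 2, and Ca-alpha1T and mAChR-B 1 each. Axon guidance and cell adhesion genes had 12 in 11 of 77, 4.38 per Mb (6.45 ± 3.39), with the strongest in Sema1a, fra, a netrin receptor gene, side and caps. In each of these last 3 lists, every replicate list gave a value below that of the same list for all genes.

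**Figure D5:**
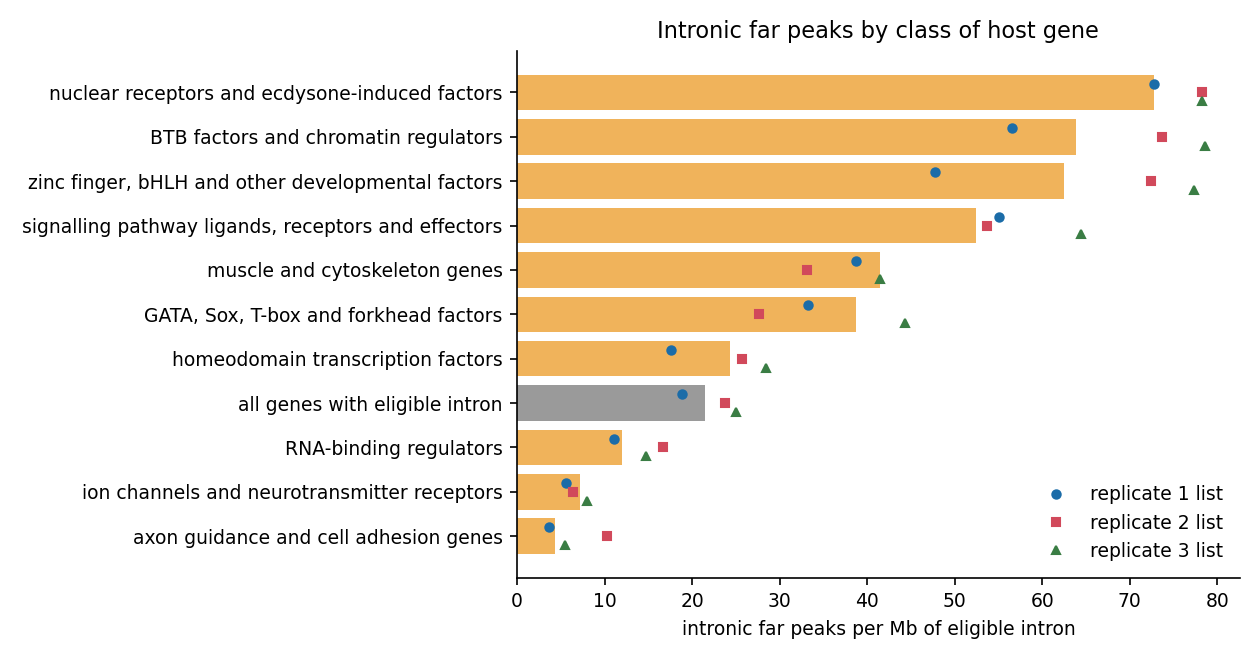
Intronic far peaks per Mb of eligible intron for 10 lists of genes (orange) and all genes with eligible intron (grey). Bars are the IDR list and points the 3 replicate lists, from 72.8 per Mb for nuclear receptors and ecdysone-induced factors to 4.38 for axon guidance and cell adhesion genes.

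The neural gene lists did hold relaxed regions. Axon guidance and cell adhesion genes had 532 relaxed regions that met the rule, of which 16 (3.01%) overlapped an IDR peak, and ion channels and neurotransmitter receptors had 190, of which 9 (4.74%) did. Nuclear receptors and ecdysone-induced factors had 136, of which 34 (25%) did, and BTB factors and chromatin regulators 114, of which 31 (27.2%) did, beside 13.1% for all relaxed regions of the rule. Of the long genes without a peak of the class, 2 were picked after seeing the values. The eligible introns of bru3, an RNA-binding protein gene, and kirre, a cell adhesion gene, spanned 250 and 234 kb and held 44 and 45 relaxed regions, and neither held an IDR peak of the class.

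By chromosome arm the density was 26.7 per Mb on 2L, 23.4 on 3L, 21.5 on 2R, 19.7 on X and 19.1 on 3R. In the replicate lists 2L had 25.4, 27.1 and 30.8 per Mb in replicates 1, 2 and 3, the highest of the arms in replicates 1 and 3 and level with 2R, at 27.1, in replicate 2. The values on 2R ran from 17.6 to 27.1 per Mb, and no test between arms was made. Chromosome 4 had 0.288 Mb of eligible intron and no peak. None of the 647 summits lay in an annotated transposable element.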

How the data were processed

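Chromatin immunoprecipitation against tagged Mirror was sequenced from 3 biological replicates of whole mirr-GFP embryos, which form 1 group, so no comparison between treatments was possible. The authors deposited peak lists in which each region has a position, a summit and a signal value, with dm6 coordinates per the README texts deposited beside them. There is a relaxed list of 30000 regions per replicate and for the pooled call, and a list of 6201 IDR peaks. The aligner, the peak caller, the IDR threshold, the depth and the scale of the signal are not given in the sources used here. Signals were compared only within a list, and tests that drew on signal used its rank. Those texts were read only for how the lists were derived, and no column belonged to a sample outside the series.

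Genes, exons and start sites came from the Ensembl release 115 annotation of BDGP6 and bases from the RefSeq release 6 genome. No region ended past an arm of that genome. Summits were classed by position, replicate lists were taken to their 6201 strongest regions, and shares were compared with two-sided Fisher's exact tests (SciPy 1.17.1, Python 3.11.15, pandas 2.3.3, numpy 2.4.6), with Benjamini-Hochberg adjustment and a threshold of 0.05. Where a table held a 0, 0.5 was added to each cell for the log2 odds ratio. Sequences were sought in 201-bp windows at summits and 1000 bp to either side, over 2080 6-mers and 16 known sequences. Standard errors are Woolf's, and figures were drawn with matplotlib 3.10.9. The members, gene lists and sequences were chosen with earlier results of these data known.

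Genes named in the text are ara, caup and mirr, the hosts of the 20 strongest peaks, the 10 genes with the most, and up to 4 hosts per gene list with the strongest peak. Those picked otherwise are said to be. The window and name of 1 of the strongest peaks are not reported here. Of the genes listed by role, 538 of 547 symbols matched. Alternatives covered the distance limit, the annotation, the strongest peaks, 1 summit per gene, the overlap rule, window sizes and leaving out each replicate.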

Additional observations from a re-analysis of the deposited data

How the results depend on the processing

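The lower IDR share of relaxed regions and the fewer neighbouring summits of intronic far against intronic near peaks kept their direction and their side of the threshold under every alternative run, as did the lower IDR share against promoter regions. The other values below are log2 odds ratios, intronic far over the other class, and the cause of each change was not tested. For measures other than recurrence, values without 1 replicate are means over the lists of the remaining replicates, and a sequence is counted where both lists call it.

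Recurrence against intronic near peaks was no longer called with a TSS limit of 2500 bp (-0.15), starts of all genes (-0.23), 1 summit per gene (-0.10), the 3100 strongest peaks (-0.010), 50% reciprocal overlap (-0.12) or summits within 100 bp (-0.27), was 0.68 with the full relaxed lists, and without 1 replicate ran from -0.49 to -0.12. Against intergenic far peaks it was -0.17 at 10000 bp, 0.85 with 1 summit per gene and 1.83 with the full lists. Against promoter peaks it was 0.28 at 2500 bp, -0.26 at 10000 bp, 0.76 with 1 summit per gene, 1.11 for the 3100 strongest and 2.16 with the full lists, and ran from -0.47 to 0.82 without 1 replicate.

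The share among the strongest was called at 10000 bp (-0.71, -0.78 and -0.71 against intronic near, intergenic far and promoter peaks) and, against intronic near, for the strongest 50% of the list (-0.33). Without 1 replicate it ran from -0.54 to -0.36 against intronic near and from -0.43 to -0.35 against promoter peaks. With 1 summit per gene it was 0.44 against intergenic far and 0.28 against promoter peaks.

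Another summit within 2 kb, against intergenic far peaks, was -0.35 at 10000 bp, 0.67 with starts of all genes, -0.81 for the 3100 strongest and -0.080 within 1 kb, and ran from -0.16 to -0.0063 without 1 replicate. Against promoter peaks it was 0.22 at 2500 bp, -0.28 at 10000 bp, -0.72 with 1 summit per gene and -0.46 within 5 kb, and ran from -0.26 to -0.081. Non-coding starts against promoter peaks were not called at 10000 bp (-1.09) or with 1 summit per gene (-1.14). The IDR share against intergenic far regions was 0.38 at 2500 bp, -0.33 at 10000 bp, 0.57 with starts of all genes and 1.25 with 1 summit per gene.

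Counts of sequences and hexamers moved more. Known sequences called against intronic near summits were 1, and 2 at 10000 bp, 0 for the 3100 strongest and 0 for the summit-to-flank difference. Against intergenic far they were 0, and 1 at 2500 bp, and 0 to 1 without 1 replicate. Against promoter summits they were 4, and 8 at 2500 bp, 2 at 10000 bp, 2 with 1 summit per gene, 1 for the 3100 strongest, 8 in 250-bp windows and 0 for the summit-to-flank difference. Hexamers more and less frequent at summits than flanks, 102 and 103, were 61 and 67 in 50-bp windows, 192 and 191 at 2500 bp, 17 and 22 at 10000 bp, 43 and 36 with 1 summit per gene, 40 and 45 for the 3100 strongest, and 46 to 79 and 40 to 113 without 1 replicate. Hexamers called against intronic near summits, 4, were 1 in 50-bp and 13 in 250-bp windows, 2 at 2500 and at 10000 bp, 0 in the other 3 settings, and 0 to 1 without 1 replicate. Against intergenic far summits, 2, they were 12 in 250-bp windows and 0 in 50-bp windows, at 10000 bp, with starts of all genes, with 1 summit per gene, for the 3100 strongest and without any 1 replicate. Against promoter summits, 331, they were 116 and 620 in 50-bp and 250-bp windows, 507 and 115 at 2500 and 10000 bp, 129 with 1 summit per gene, 49 for the 3100 strongest, and 142 to 191 without 1 replicate. Fewer peaks enter the fits at 10000 bp, with 1 summit per gene and among the 3100 strongest.

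The density, 21.4 per Mb, was 31.4 per Mb over genes with a relaxed region, and 45.9 and 14.1 in the bins from 5 to 10 kb and over 20 kb. Depth is unknown, so how far it limits the weaker peaks could not be judged. No paired analysis was possible because all samples belong to 1 group.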
